A study of Arabidopsis thaliana with 4 samples.

Results

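EXPA7, EXPA18 and ATMYC1 are 3 genes of the root epidermis and its hairs, and all 3 gave a lower signal in sorted root protoplasts than in intact roots. They were chosen by name: each is the only gene assigned to 1 probe set, EXPA7 (AT1G12560) to 259525_at, EXPA18 (AT1G62980) to 261099_at and ATMYC1 (AT4G00480) to 255675_at. These are 3 of the 13513 probe sets on the array to which the annotation used here gives a single gene. The series holds 4 Affymetrix ATH1 arrays of Arabidopsis thaliana, ecotype Columbia, made from the roots of seedlings 6 days after germination. Every root had spent 1 hour on medium with 140 mM NaCl, so salt treatment is common to both groups and no array shows these genes without salt. The 2 whole-root arrays carry RNA of intact roots, and the 2 sorted-protoplast arrays carry RNA of cells freed by wall digestion and passed through a cell sorter that kept all of them. The comparison therefore asks how enzymatic wall removal followed by sorting alters the transcript profile of salt-treated roots. Sorted protoplasts differ from whole roots in digestion, in sorting and in which cells are recovered, and these cannot be told apart here.

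Root hairs are tubular outgrowths of single epidermal cells, and their growth requires the cell wall to yield at one site. Expansins are wall proteins that loosen the bonds between cellulose and matrix polysaccharides without cutting them, and EXPA7 and EXPA18 are the family members known for expression in hair-forming cells. Whether an epidermal cell forms a hair is set by complexes of MYB, WD40 and basic helix-loop-helix (bHLH) proteins. ATMYC1 encodes a bHLH protein of the same subgroup as GL3, EGL3 and TT8 and takes part in this patterning.

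Signals below are the authors' MAS5 intensities, scaled by them to a common level on each array. The EXPA7 probe set read 607 and 1001 on whole-root replicates 1 and 2, against 161 and 222 on sorted-protoplast replicates 1 and 2. Both whole-root arrays lay above both sorted-protoplast arrays, and the lower whole-root signal was 2.73 times the higher protoplast signal. The group means were 804 ± 279 and 192 ± 43.4 (SD, n = 2), a ratio of 4.20 between whole roots and sorted protoplasts.

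For EXPA18 the signal was 741 and 812 in intact roots, against 121 and 150 after protoplasting. Its replicates lay closer together than those of the other two genes, the brighter array reading at most 1.24 times the dimmer one in either group. The groups did not overlap, with the lower whole-root signal 4.94 times the higher protoplast signal. The means were 776 ± 50.1 and 135 ± 20.5 (SD, n = 2), a ratio of 5.73.

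ATMYC1 read 366 and 244 in intact roots but 62.0 and 37.1 after protoplasting. Again the groups did not overlap, and the lower whole-root signal was 3.94 times the higher protoplast signal. The means were 305 ± 85.8 and 49.5 ± 17.6 (SD, n = 2). No ratio of these means is given, because the protoplast mean lay below the signal filter of 51.3. In sorted protoplasts ATMYC1 was dim: its mean log2(signal + 16) there was 6.01, under the level of 6.07 that a probe set had to exceed on average over the 4 arrays to be tested, so it was tested through its whole-root signal and its p in that fit is a description. With no filter, where every probe set is tested, its limma adjusted p was 0.0426. For EXPA7 and EXPA18 the protoplast means on the same scale, 7.68 and 7.24, lay above that level.

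**Figure D1:**
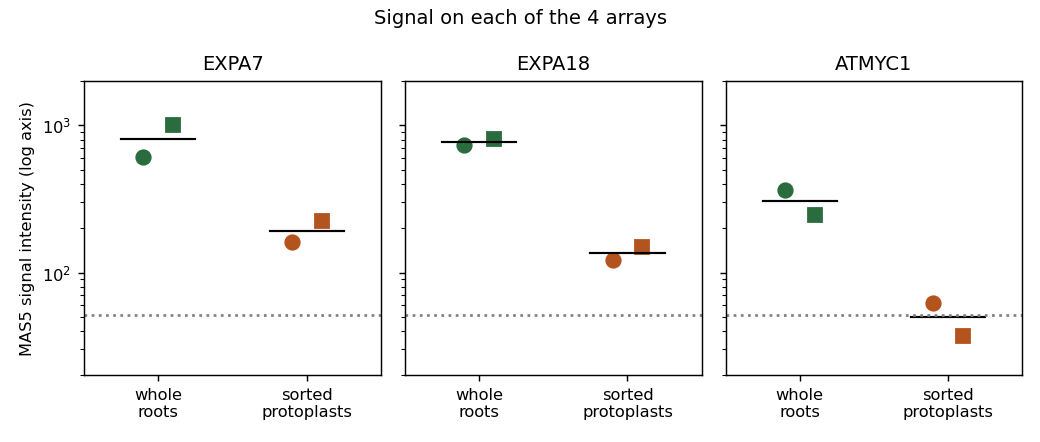
MAS5 signal intensity (log axis) of EXPA7, EXPA18 and ATMYC1 on each array, whole roots in green and sorted protoplasts in brown, with circles for replicate 1, squares for replicate 2, a bar at each group's mean and a dotted line at the signal of 51.3 used as filter. For each gene both whole-root points lie above both sorted-protoplast points, and only ATMYC1 comes near the filter line in protoplasts.

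On the log2(signal + 16) scale, where the offset reduces the differences of dim genes, the difference between sorted protoplasts and whole roots was tested with limma over all 13647 probe sets that passed the filter. EXPA18 fell by 2.39 (SE 0.35, 95% interval -3.17 to -1.61, limma adjusted p = 0.00301). ATMYC1 fell by 2.29 (SE 0.38, 95% interval -3.14 to -1.45, limma adjusted p = 0.00528). That p and the call are descriptions, since ATMYC1 passed the filter through its whole-root signal. EXPA7 fell by 1.95 (SE 0.39, 95% interval -2.83 to -1.08, limma adjusted p = 0.0135). All 3 genes were thus called lower at an adjusted p under 0.05, as were 4.11% of all tested probe sets, while 6.38% were called higher. In bulk RNA of this kind, fewer cells of a type and less of the transcript in each cell cannot be told apart.

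The members lay near the low end of the distribution of differences. Among the 13647 tested probe sets EXPA18 ranked 72, ATMYC1 85 and EXPA7 156 from the lowest difference. The rank of ATMYC1 is a description too, as it was tested through its whole-root signal. Groups that did not overlap were common in this series, since 36.2% of tested probe sets had both protoplast signals below both whole-root signals. A gap at least as wide as that of EXPA18 was found in 0.322% of tested probe sets, and one at least as wide as that of EXPA7 in 1.51%.

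**Figure D2:**
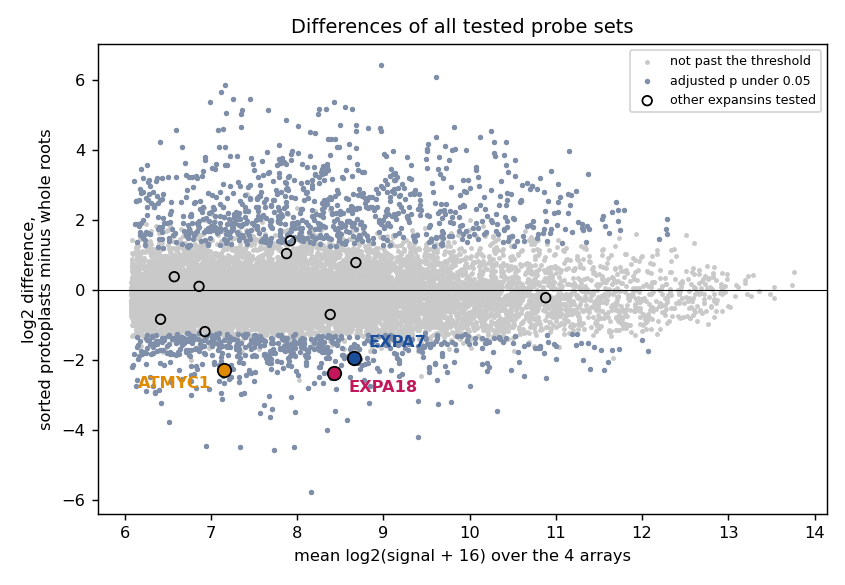
Log2 difference between sorted protoplasts and whole roots (vertical axis) against mean log2(signal + 16) over the 4 arrays (horizontal axis) for the 13647 tested probe sets, with those past the adjusted p threshold in blue-grey. EXPA7, EXPA18 and ATMYC1 lie among the lower calls at -1.95, -2.39 and -2.29, while the 9 other expansins tested, open circles, lie between -1.19 and 1.41.

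With 2 arrays a group, limma takes part of each gene's spread from all probe sets together. The exact permutation test over the 4 arrays gave each gene p = 0.333 (two-sided), the smallest value that 2 arrays against 2 can reach. Whether replicates came from separate plantings is not stated in the labels, so every p-value reflects the scatter among these particular samples, and that scatter may be technical. Without whole-root replicate 1 the adjusted p was 0.0735 for EXPA7, 0.0569 for EXPA18 and 0.0999 for ATMYC1, and without whole-root replicate 2 it was 0.141, 0.0657 and 0.0593, so each call ended when either whole-root array was left out. The differences stayed between -2.57 and -1.60 in these fits, with SEs from 0.448 to 0.465. Without either sorted-protoplast array they lay between -2.57 and -1.74, with SEs from 0.446 to 0.476. The loss of the calls was thus not matched by a larger SE, and its cause was not tested.

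**Figure D3:**
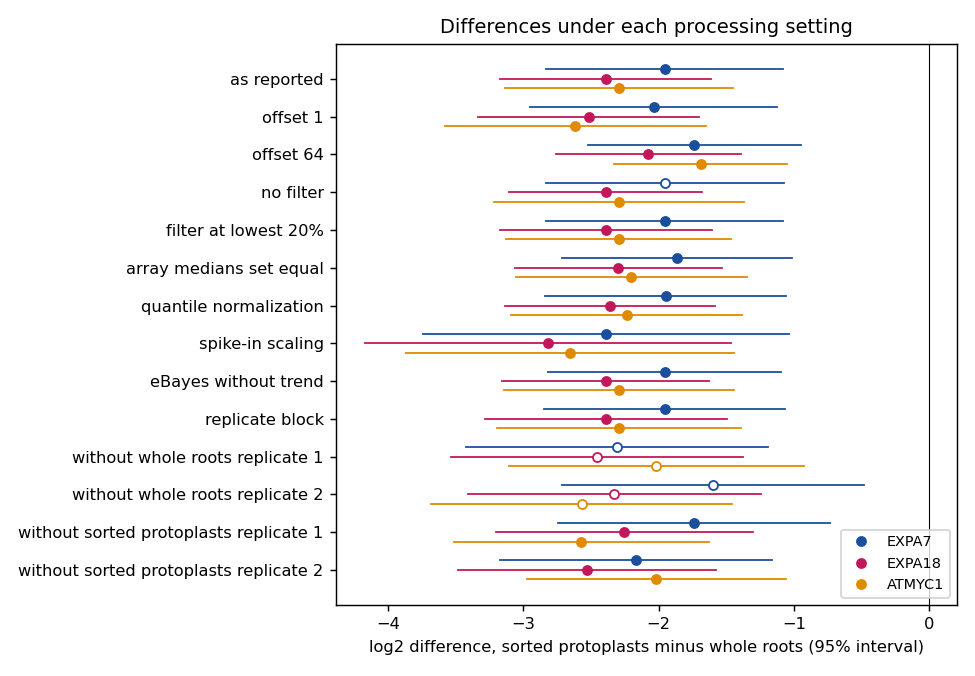
Log2 difference between sorted protoplasts and whole roots with its 95% interval for EXPA7, EXPA18 and ATMYC1 under the reported setting and each alternative. Filled points have an adjusted p under 0.05 and open points do not; every point lies below 0, and the open ones are those without a whole-root array and EXPA7 with no filter.

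The 95% intervals of the 3 differences overlapped. On the log2 scale the difference of EXPA7 was smaller than that of EXPA18 by 0.44 and smaller than that of ATMYC1 by 0.34, and whether the genes fell by unequal amounts is not settled by these values. Within groups ATMYC1 varied the other way from the expansins: EXPA7 and EXPA18 were higher on replicate 2 of both groups, whereas ATMYC1 was higher on replicate 1 of both.

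Genes with a similar array profile were found by the Euclidean distance between log2(signal + 16) values over the 4 arrays, after subtracting each gene's mean, among the 1055 tested probe sets whose gene has a symbol. Nearest to EXPA18 was GPDHC1, a cytosolic glycerol phosphate dehydrogenase, at a distance of 0.23, followed by EXPA7 at 0.61 and JAL33, a jacalin-related lectin, at 0.64 (the call of every near gene named here, as of the members, ended without either whole-root array). Nearest to EXPA7 were GPDHC1 at 0.43, JAL33 at 0.45 and GH9C1, an endoglucanase of the cell wall, at 0.48. GH9C1 read 515 and 912 in intact roots and 168 and 141 after protoplasting, and it fell by 2.05 ± 0.39 on the log2 scale (SE, adjusted p = 0.0111 in limma). For ATMYC1 the nearest genes were others, LSM1A, an RNA decapping factor, at 0.46, EMB2786 at 0.69 and UGT71C2, a glycosyltransferase, at 0.70. The distance between EXPA18 and ATMYC1 was 0.77, and that between EXPA7 and ATMYC1 was 1.18. Probe sets without a gene symbol could be nearer still: over all tested probe sets GPDHC1 ranked 4, EXPA7 54 and JAL33 59 for EXPA18. For EXPA7, GPDHC1 ranked 29, JAL33 31 and GH9C1 39. For ATMYC1, LSM1A ranked 10, EMB2786 45 and UGT71C2 50.

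**Figure D4:**
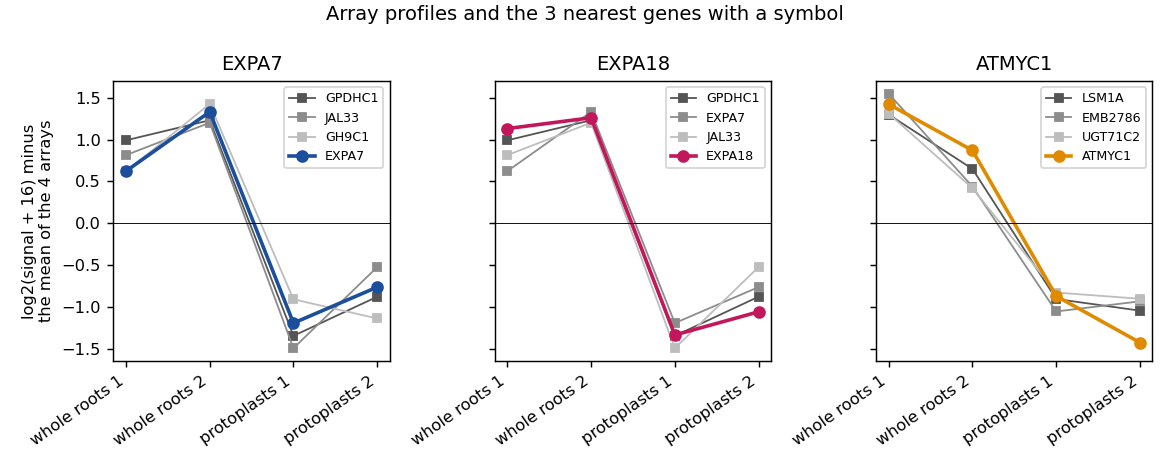
Log2(signal + 16) minus its mean over the 4 arrays, for each member and its 3 nearest genes with a symbol; lines only join the values of one gene. EXPA7 and EXPA18 share GPDHC1 and JAL33 as near profiles, at distances of 0.23 to 0.64, and both are higher on whole-root replicate 2, while ATMYC1 and its nearest genes are higher on whole-root replicate 1.

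The expansin family was examined to place EXPA7 and EXPA18 among their relatives. Of 37 expansin and expansin-like genes, 19 had a single-gene probe set and 11 passed the filter. EXPA7 and EXPA18 were called lower, and 0 of the other 9 were called in either direction by limma, with 3 of these at an unadjusted p under 0.05. As 4.11% of all tested probe sets were called lower and 6.38% higher, 0 calls among 9 genes is near that share. The median log2 difference was -0.22 over the 11 genes and -0.16 over all tested probe sets. Of the other 9 expansins 5 had a difference above 0 and 4 below, which became 3 and 6 with arrays scaled on spike-in controls, and their differences ran from -1.19 to 1.41.

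EXPB3, a beta-expansin, was the lowest of the other 9. It read 123 and 228 in intact roots and 69.2 and 60.2 after protoplasting, which gave a log2 difference of -1.19 ± 0.38 (SE, adjusted p = 0.0776 in limma), with groups that did not overlap. EXLA3, an expansin-like A gene, was the highest, with 125 and 142 in whole roots and 203 and 695 in sorted protoplasts, which gave 1.41 ± 0.52 on the log2 scale (SE, adjusted p = 0.119 in limma). EXLA3 was called higher without sorted-protoplast replicate 1 and with the replicate number as a block, where the other fits did not call it. Without sorted-protoplast replicate 1, EXPA15 was at -1.52 and EXPB1 at -1.31, against -0.70 and -0.84 with no array left out. EXPB1 was dim in sorted protoplasts, at 72.5 and 29.9. Its mean there, 51.2, lay just below the signal filter, so EXPB1 was tested through its whole-root signal. EXPA8, below the filter, had 62.6 and 97.6 in whole roots and 1.41 and 42.3 in sorted protoplasts, so that its protoplast arrays differed greatly from each other. Its groups did not overlap, and with no filter its log2 difference was -1.57 (limma adjusted p = 0.226).

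**Figure D5:**
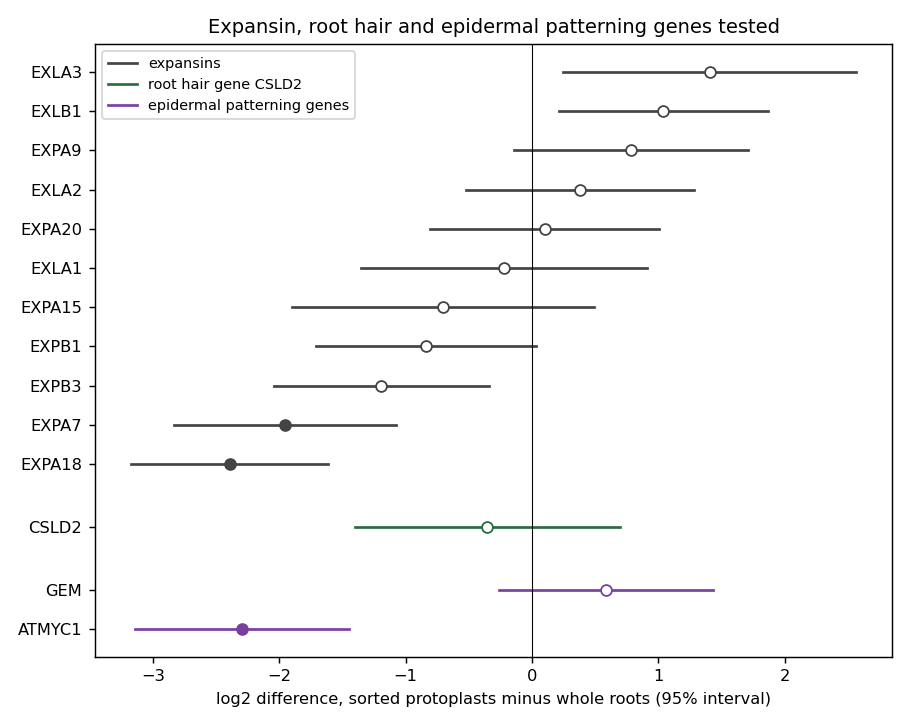
Log2 difference between sorted protoplasts and whole roots with its 95% interval for the 11 expansins tested, for the root hair gene CSLD2 and for the epidermal patterning genes tested; filled points have an adjusted p under 0.05. EXPA18, EXPA7 and ATMYC1 are the filled points, at -2.39, -1.95 and -2.29, and the intervals of EXLA3, EXLB1 and EXPB3 exclude 0 without passing the adjusted threshold.

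Few further genes of root hair growth could be measured. Of 48 listed root hair genes 5 had a single-gene probe set and 4 passed the filter, of which 2, EXPA7 and EXPA18, fell and 0 rose. Over all tested probe sets 4.11% were called lower and 6.38% higher. Of these 4, 3 had both protoplast signals below both whole-root signals, as did 36.2% of all tested probe sets. CSLD2, a cellulose synthase-like gene needed for normal hairs, had 1263 and 1145 in whole roots and 571 and 1528 in sorted protoplasts, so its groups overlapped (log2 difference -0.36 ± 0.47, SE, limma adjusted p = 0.675). XTH26, a xyloglucan-modifying enzyme gene, was below the filter with 17.6 and 36.2 in whole roots and 1.67 and 3.15 in sorted protoplasts; with no filter its adjusted p in limma was 0.0867. The 4 tested genes had a median log2 difference of -1.20, and 2 of them are members.

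The patterning genes that act with ATMYC1 were mostly without a probe set of their own in the annotation. Of 25 listed genes 4 had one and 2 passed the filter, of which ATMYC1 fell and 0 rose, beside 4.11% called lower and 6.38% higher over all tested probe sets. GEM, which acts on expression of the patterning gene GL2, had 246 and 411 in whole roots and 489 and 482 in sorted protoplasts, which gave 0.59 ± 0.38 on the log2 scale (SE, adjusted p = 0.362 in limma). TRY, an R3 MYB protein gene that opposes the MYB and bHLH complex, was below the filter, with 32.5 and 20.7 in whole roots and 4.67 and 28.1 in sorted protoplasts, and its groups overlapped. JKD, a zinc finger gene that acts on epidermal pattern from the underlying cortex, was below the filter too, with 94.3 and 56.4 in whole roots and 6.91 and 41.0 in sorted protoplasts. The groups of JKD did not overlap, and with no filter its log2 difference was -1.31 (limma adjusted p = 0.237). Among the bHLH genes listed by name, to which ATMYC1 was added by its locus, 6 were tested and ATMYC1 alone was called. Here and among the patterning genes the call of ATMYC1 is a description, as it passed the filter through its whole-root signal. The share called lower over all tested probe sets was 4.11%. The other 5 had differences from -0.22 for bHLH115 to 0.88 for bHLH121, with bHLH104 at 0.56 and ILR3 at 0.25 (-0.20 with spike-in scaling), and 0 of them had an unadjusted p under 0.05 in limma.

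Markers of other cell types, shoot genes included, moved beside these genes in part, and their part in the falls was not tested. Of 40 markers in 8 lists 10 had a single-gene probe set and 9 were tested, of which 3 rose and 0 fell. Over all tested probe sets 6.38% were called higher and 4.11% lower, so 0 falls among 9 genes is near that share. In the root cap and cell death list 2 of 3 rose, AT4G04460, an aspartic protease gene, at 338 and 391 against 2103 and 1573, and scpl48, a carboxypeptidase-like gene, at 1745 and 1645 against 5973 and 7347. DMP4, the third of that list, read 855 and 775 against 2673 and 1376 (adjusted p = 0.0884 in limma). With it the summed signal was 2811 to 2938 in whole roots and 10296 to 10750 in sorted protoplasts. The xylem marker IRX15 was also called higher, at 54.8 and 47.2 against 218 and 128. Its whole-root mean signal, 51.0, lay just below the signal filter, so it was tested through its protoplast signal. Its call among the 3 is therefore a description, and with no filter IRX15 was not called (adjusted p = 0.113 in limma). Without either whole-root array 0 markers were called higher, and with spike-in scaling 1 was, scpl48. The 2 cortex markers summed to 96.9 and 172 in whole roots and 36.2 and 49.6 in sorted protoplasts, and AT1G09750, the one tested, differed by -1.39 ± 0.40 on the log2 scale (SE, adjusted p = 0.0584 in limma). AT1G09750 was called lower with the replicate number as a block (adjusted p = 0.0138 in limma) and with spike-in scaling (adjusted p = 0.0157 in limma). Its SE was larger in these 2 fits, at 0.43 and 0.52. In each of them limma estimated its prior anew, so their p-values are not on an equal footing with the reported one. Without sorted-protoplast replicate 2 its difference was -1.81. Its protoplast mean signal, 32.7, lay below the signal filter, so it was tested through its whole-root signal and its p-values and calls are descriptions. With no filter AT1G09750 was not called (adjusted p = 0.170 in limma). The stele markers PHV and LHW summed to 258 and 287 against 413 and 274, and the shoot markers LHCB4.1 and RCA to 320 and 437 against 279 and 142. The lists for endodermis, phloem and quiescent centre had 0 single-gene probe sets. For comparison, the 5 root hair genes with a probe set summed to 3654 and 4151 in whole roots and 1644 and 2716 in sorted protoplasts. EXPA7 and EXPA18 are among these 5, so the sum includes the members' own falls and is no separate measure of hair cells.

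The authors' scaling had set the trimmed mean signal of each array to about 250.02, while the 18 spike-in controls averaged, in log2 units, 9.42 and 8.96 in whole roots and 9.32 and 9.99 in sorted protoplasts. Pearson's r of log2 signals over tested probe sets, which are not independent replicates, was 0.938 between whole-root arrays, 0.910 between sorted-protoplast arrays and 0.768 to 0.790 across groups. The ratio of 3' to 5' signal of the GAPDH control, a measure of RNA integrity and amplification, ran from 4.56 to 15.0 in whole roots and from 3.45 to 9.96 in sorted protoplasts, so that the ranges overlapped. The same ratio ran from 19.1 to 29.1 against 27.2 to 41.5 for the actin control, and from 3.24 to 4.91 against 3.25 to 4.54 for the ubiquitin control, and its part in the falls was not tested.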

How the data were processed

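RNA was amplified in 2 cycles and hybridized to 4 arrays, per the labels' protocols. The authors deposited 1 linear signal intensity per probe set and array; the submitters' processing notes name MAS5, with no version. Names came from the platform annotation, updated to RefSeq symbols (TAIR10.1) through gene identifiers: of 22746 probe sets other than 64 controls, 13513 had 1 gene, 503 several and 8730 were not listed. No genome coordinates are given, because the build of the array's design is not named.

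Signals were taken as log2(signal + 16). The 40% of probe sets with the lowest mean, up to a signal of about 51.3, were left out. The other 13647 were fitted with limma 3.58.1 in R 4.3.3 (lmFit, eBayes with a trended prior; 2 residual and 7.56 prior degrees of freedom), with Benjamini-Hochberg adjustment over all of them and a threshold of 0.05. The fit was tested on simulated data. The number of arrays limits precision.

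The 3 genes and the lists were chosen with earlier results of these data known. The lists held 10 hand-written sets and the expansins by name. The bHLH genes by name, with ATMYC1 put in by its locus, were added after the annotation was seen. Named genes are the members, the 4 tested genes of each list with the largest absolute difference, and the 3 nearest profiles per member; the values of 1 root hair gene that this rule names are not reported here. EXLB1, EXPA15, EXPB1, bHLH115 and the genes below the filter were named once their values had been seen. The alternatives tried were different offsets, filters, scalings and prior variances, a replicate block, a stricter threshold and each array left out. In each fit limma estimated its prior anew, so adjusted p-values are not on an equal footing between settings.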

Additional observations from a re-analysis of the deposited data

How the results depend on the processing

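In 39 comparisons of the 3 genes with an alternative, the direction turned in 0 and the call was lost in 7. EXPA7 lost it with no filter (-1.95, limma adjusted p = 0.0553), where more probe sets are tested. Of the losses 6 came without a whole-root array, and the cause was not tested; all probe sets then gave 192 higher and 54 lower calls, or 167 and 25, against 870 and 561. With 1 array left out the differences ranged from -2.31 to -1.60 for EXPA7, -2.53 to -2.25 for EXPA18 and -2.57 to -2.02 for ATMYC1; calls ranged from 167 to 989 higher and 25 to 649 lower, lower calls of root hair genes from 0 to 2, of epidermal patterning genes from 0 to 1 and of expansins from 0 to 4, higher calls of expansins from 0 to 1, and markers of other cell types from 0 to 4 higher and 0 to 1 lower. In 338 comparisons for 26 other named genes 295 kept side and direction, 27 lost the call (18 without a whole-root array), 9 gained it and 7 turned, none of the turned values being called: with 1 array left out EXPA15 ranged from -1.52 to 0.11, CSLD2 from -1.05 to 0.34, ILR3 from -0.057 to 0.56 and LHW from -0.37 to 0.45, and with spike-in scaling ILR3 was at -0.20 and LHW at -0.37.

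Over all probe sets, calls were 394 higher and 137 lower with no filter and 393 and 107 at an adjusted p under 0.01. With no filter, 1 root hair gene and 1 expansin were called lower. Spike-in scaling gave 421 higher and 680 lower calls, 1 marker higher and 1 lower. It shifted the median over tested probe sets from -0.16 to -0.57; relative to that median EXPA7, EXPA18 and ATMYC1 were at -1.82, -2.25 and -2.08, against -1.80, -2.24 and -2.14 as deposited. Of the calls 60.8% were higher with the deposited scaling, 38.2% with spike-in scaling and 69.8% with array medians set equal (916 higher, 397 lower).

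Replicate numbers are shared only as numbers (correlation of deviations -0.156). With the replicate block, EXPA7, EXPA18 and ATMYC1 kept differences of -1.95, -2.39 and -2.29 and their calls, at larger SEs of 0.455, 0.456 and 0.459. In that fit 1 expansin (EXLA3) was called higher, 1 marker (AT1G09750) was called lower, and all probe sets gave 1123 and 787 calls. The calls of ATMYC1 and AT1G09750 are descriptions, since both genes passed the filter through their whole-root signal. Crossed replicate numbers, chosen after seeing the data, gave 1137 and 922. Low signal limits what can be said of ATMYC1 in sorted protoplasts, where an offset of 64 moved its difference to -1.69 and an offset of 1 to -2.62.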
